A study of Mus musculus with 9 samples.

Results

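The mRNA decay machinery is described here in C2C12, a mouse line of growing myoblasts, after knockdown of 1 of 2 RNA-binding proteins. It was taken as a list of 58 genes chosen by name, though with earlier results of these data known, of 22071 genes named on the array. Each gene was read through the exon array probe sets whose annotation gives exactly 1 symbol, the current or an older name. The list holds 16 genes of deadenylation, 15 of decapping, 2 of 5′ exonucleases, 13 of the exosome and its helpers, 5 of proteins that bind 3′ ends of messages and 7 of nonsense-mediated decay. Of the 58 genes, 53 were tested, of 12646 tested in all.

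Cells carried no labelled genetic change. The siRNA was a control, or was directed at Cugbp1 (now named Celf1) or at Mbnl1, and total RNA was taken 48 h after transfection, with 3 arrays for each condition and 100 ng of RNA for each array. The series' design text names these conditions and no question beyond comparing them. All samples came from 1 line, siRNA lowers a message without removing it, and the labels used here give neither the siRNA sequences nor whether replicates were separate cultures, so p-values rest on the spread of these arrays only, part or all of which may be technical.

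Most messages in the cytoplasm lose their poly(A) tail first, through the PAN2-PAN3 pair and then the CCR4-NOT complex. The cap is then removed by the DCP2 enzyme with its activators, among them the LSM ring, and the XRN1 exonuclease digests the body from the 5′ end, while the exosome digests it from the 3′ end. Proteins such as those of the ZFP36 family bind AU-rich 3′ ends and bring in the deadenylases, and the UPF and SMG proteins start the decay of messages with a premature stop codon. CUGBP1 itself binds GU-rich 3′ ends and can recruit the deadenylase PARN, and MBNL proteins regulate splicing and can affect the stability of messages in muscle cells.

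The labels were checked on the targeted genes. Celf1 read 10.11, 10.14 and 10.14 on the log2 scale on the control arrays and 8.60, 8.60 and 8.81 after Cugbp1 siRNA, which left 36.4% of the control level. Mbnl1 read 11.47, 11.46 and 11.44 on the control arrays and 10.05, 10.10 and 10.18 after Mbnl1 siRNA, which left 39.3%. The median intensity over all probe sets lay between 43.6 and 43.8 on the control arrays and between 42.3 and 42.9 on the 6 arrays of the siRNAs. The median log2 value of the probe sets bright enough to be kept lay between 8.74 and 8.76 on the control arrays and between 8.81 and 8.89 on the others. All 7 listed myoblast markers had enough bright probe sets for a test. Of these 7, 3 rose and 0 fell after Cugbp1 siRNA, and 1 rose and 1 fell after Mbnl1 siRNA. Of 16 markers of blood, endothelial, epithelial and neural cells, 12 had enough bright probe sets, as few as 5 of 53 in Ptprc and as many as 10 of 10 in Cd68. Of these 12, 0 rose and 7 fell after Cugbp1 siRNA (26% and 12.7% of all genes did). After Mbnl1 siRNA 2 rose and 6 fell (26.9% and 14.6% of all genes). The summed median intensity of the 16 markers lay between 1626 and 1660 on the control arrays, 1403 and 1453 after Cugbp1 siRNA and 1617 and 1634 after Mbnl1 siRNA. None was at 0, and the dimmest was Ptprc, whose median probe set read 3.75 on the log2 scale. The part of these shifts in the results below was not tested. The labels name 1 line, and these readings do not show that cells of other types were present. In bulk RNA, fewer cells of a type and less RNA per cell cannot be told apart.

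Promoter windows are shown for 4 genes that the results turn on. Xrn1 and Zfp36l1 had the largest changes of the list against control, and Parn and Dis3 were the genes that differed between the siRNAs. Each window runs from 250 bases before to 50 bases after the annotated start in RefSeq (GRCm38.p6), written 5′ to 3′ on the strand of the gene, at chr9:95954510-95954809 (plus strand) for Xrn1, chr12:80112964-80113263 (minus) for Zfp36l1, chr16:13668121-13668420 (minus) for Parn and chr14:99099721-99100020 (minus) for Dis3. Capitals mark matches, on either strand, to 5 short motifs: GGGCGG, known as the GC box, CCAAT, known as the CCAAT box, TATAAA, known as the TATA box, CCGGAAG, a core bound by ETS factors, and TGACGTCA, the cyclic AMP response element.
Xrn1: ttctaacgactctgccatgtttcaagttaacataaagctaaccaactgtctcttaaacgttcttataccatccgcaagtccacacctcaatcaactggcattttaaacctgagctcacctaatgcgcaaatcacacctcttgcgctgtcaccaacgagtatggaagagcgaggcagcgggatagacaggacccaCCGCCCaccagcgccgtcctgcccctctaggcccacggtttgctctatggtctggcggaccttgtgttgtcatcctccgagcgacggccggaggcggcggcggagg
Zfp36l1: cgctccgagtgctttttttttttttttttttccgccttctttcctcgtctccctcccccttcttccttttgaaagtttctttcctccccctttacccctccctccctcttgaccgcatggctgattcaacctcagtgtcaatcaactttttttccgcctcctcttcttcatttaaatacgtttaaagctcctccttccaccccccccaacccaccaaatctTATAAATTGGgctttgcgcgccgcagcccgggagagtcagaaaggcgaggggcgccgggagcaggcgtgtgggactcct
Parn: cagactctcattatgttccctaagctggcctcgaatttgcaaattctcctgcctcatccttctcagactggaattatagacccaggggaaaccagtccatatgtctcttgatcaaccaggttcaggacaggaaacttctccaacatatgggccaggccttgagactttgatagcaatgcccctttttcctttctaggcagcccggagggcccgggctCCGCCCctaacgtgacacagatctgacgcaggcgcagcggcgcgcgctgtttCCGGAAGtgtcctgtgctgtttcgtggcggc
Dis3: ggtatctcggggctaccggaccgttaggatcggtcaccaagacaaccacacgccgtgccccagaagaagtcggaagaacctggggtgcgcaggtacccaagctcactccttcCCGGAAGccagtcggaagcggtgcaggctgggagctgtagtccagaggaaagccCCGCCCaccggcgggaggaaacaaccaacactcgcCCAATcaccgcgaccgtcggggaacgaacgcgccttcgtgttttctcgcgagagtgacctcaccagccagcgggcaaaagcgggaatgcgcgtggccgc

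In these windows Xrn1 held 1 GC box, on the opposite strand, at position -56 from the start. Zfp36l1 was the gene of the 4 with a TATA box, at position -29, overlapping a CCAAT match on the opposite strand at -24. Parn and Dis3 each held a GC box and an ETS core, the latter at position 20 in Parn and at -138 in Dis3. RefSeq windows were found for 47 of the 58 genes, 58 windows in all. The ETS core was in 24.1% of these 58 windows, against 8.86% of all 32851 windows, and the GC box in 72.4% against 35.7%. The TATA box was in 3.45% against 13.6%, CCAAT in 32.8% against 37.4% and TGACGTCA in 1.72% against 1.79%. The windows of the list had a median GC content of 64%, against 52.7% over all windows. These matches describe the letters only.

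After Cugbp1 siRNA, 20 of the 53 tested decay genes rose against control and 0 fell, and the largest rise was that of the exonuclease gene Xrn1. Called here means an adjusted p under 0.05 in limma, with Benjamini-Hochberg adjustment over all genes. Of all 12646 genes, 38.7% were called, 26% higher and 12.7% lower, and of the 53 decay genes 37.7% were called. At an unadjusted p under 0.05 the number lower was also 0, a count given without its share over all genes. The median change of the 53 was 0.13 on the log2 scale, against 0.05 over all genes. The median over all genes varied with log2 level. Below a level of 7.94 it was -0.07, and 2 decay genes lay there (median 0.19). From 7.94 to 8.56 the median was 0.19 for 13 decay genes against 0.06 for all. From 8.56 to 9.46 it was 0.13 for 20 against 0.10, and above 9.46 it was 0.05 for 18 against 0.06. Shares called, here and below, were not split by level, and the part of level in them was not tested. The arrays of both conditions did not overlap for 30 of the 53 genes, 28 above control and 2 below it, which is 56.6% against 48.8% of all genes. The called changes were small, with a median size of 0.22 (0.25 over all called genes), and Xrn1 was the gene of the list that passed 1.5-fold.

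After Mbnl1 siRNA, 16 of the 53 rose against the same control arrays and 2 fell, the decapping gene Dcp1b and the Argonaute gene Ago2. Of all genes 41.5% were called, 26.9% higher and 14.6% lower, against 34% of the decay genes. The median change of the 53 was 0.09, against 0.04 over all genes, and the arrays did not overlap for 60.4% of the 53 and 57.5% of all genes. In the same ranges of level, from low to high, the decay genes had medians of 0.13, 0.11, 0.07 and 0.07. All genes had medians of -0.07, 0.04, 0.09 and 0.05. Called decay genes had a median size of change of 0.21 (0.27 over all called genes), and Xrn1 again was the gene past 1.5-fold. Both comparisons use the same 3 control arrays.

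**Figure D1:**
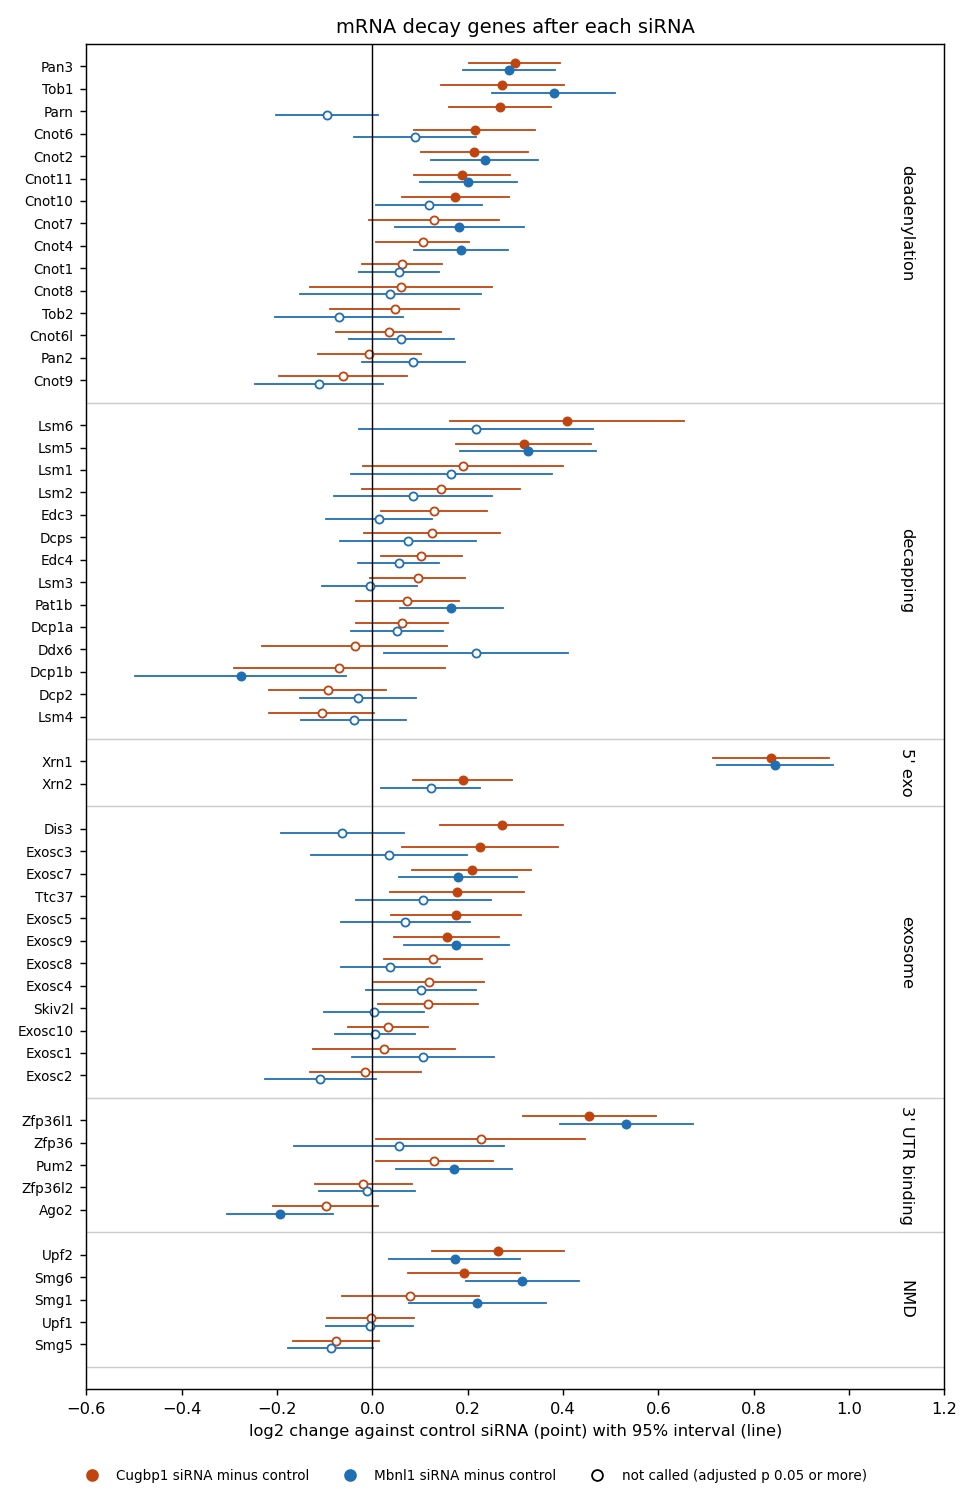
Change of each of the 53 tested decay genes after Cugbp1 siRNA (orange) and Mbnl1 siRNA (blue), as log2 difference from the control arrays on the horizontal axis with 95% intervals, grouped by role and ordered within a role by the Cugbp1 siRNA value. Filled points passed an adjusted p of 0.05; Xrn1 stands at 0.84 in each comparison, Parn and Dis3 have filled points for Cugbp1 siRNA and open ones for Mbnl1 siRNA, and with the kept probe sets centred the counts become 7 higher and 5 lower after Cugbp1 siRNA and 7 and 11 after Mbnl1 siRNA.

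The split between higher and lower depended on how the arrays were scaled. With each array centred on the median of all its probe sets, 29 decay genes were higher and 0 lower after Cugbp1 siRNA (34.8% and 9.73% of all genes), and 20 and 1 after Mbnl1 siRNA (33.5% and 11.3%). With quantile normalisation repeated over all probe sets, the counts were 16 and 0 (20.6% and 14.5% of all genes), then 12 and 3 (22.1% and 18%). Scalings that rest on bright signals moved genes down. Gene values centred on the median gene gave 9 higher and 4 lower after Cugbp1 siRNA (13.3% and 22.4% of all genes) and 8 and 6 after Mbnl1 siRNA (17.4% and 25.3%). Quantile normalisation over the kept probe sets gave 11 and 3 (13% and 21.6% of all genes), then 8 and 6 (15.8% and 26.8%). Centring the kept probe sets gave 7 and 5, then 7 and 11, while all genes split into 10.8% higher and 25.4% lower after Cugbp1 siRNA and 13.6% and 31% after Mbnl1 siRNA. That last scaling moved the median change over all genes from 0.04 to -0.06 after Mbnl1 siRNA and from 0.05 to -0.04 after Cugbp1 siRNA. Which calls held over the 20 other settings tried (other filters, scalings, summaries and fits, and each array left out) is given below gene by gene.

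**Figure D2:**
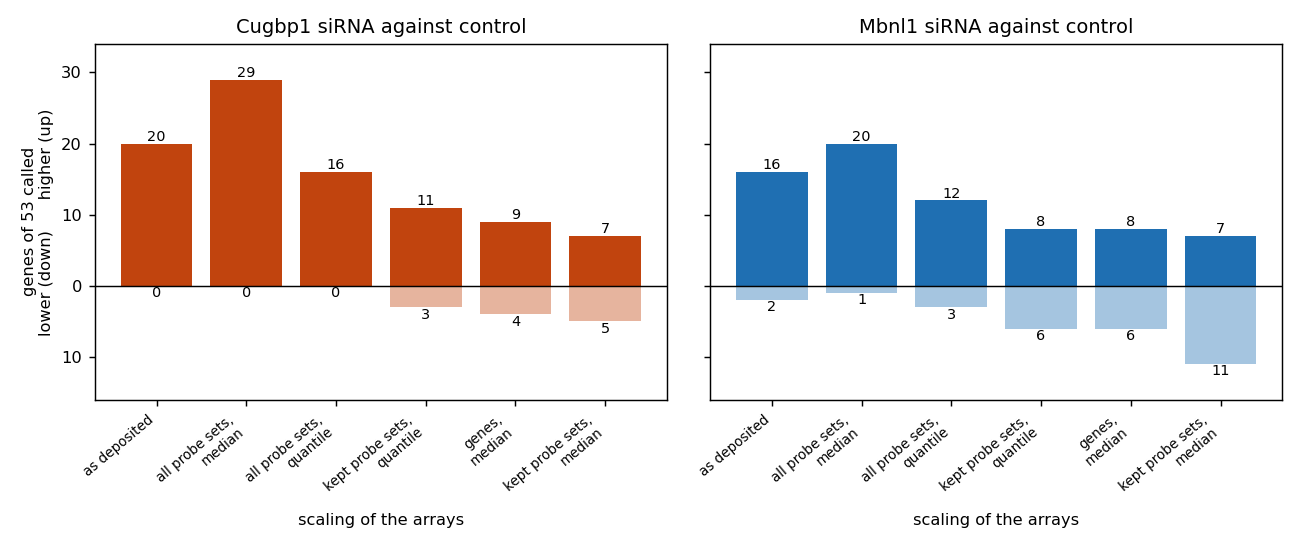
Number of the 53 decay genes called higher (up) and lower (down, pale) against control after Cugbp1 siRNA (left) and Mbnl1 siRNA (right), for the deposited values and 5 other scalings of the arrays. The counts run from 29 higher and 0 lower to 7 higher and 5 lower after Cugbp1 siRNA, and from 20 and 1 to 7 and 11 after Mbnl1 siRNA.

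Xrn1, the exonuclease that digests decapped messages, was the decay gene with the largest change in each comparison. It read 7.51, 7.47 and 7.41 on the control arrays, 8.22, 8.26 and 8.41 after Cugbp1 siRNA and 8.33, 8.31 and 8.27 after Mbnl1 siRNA. All 6 arrays of the siRNAs lay above all 3 control arrays, and the siRNA groups overlapped each other. The rise was 0.84 (SE 0.05, 1.79-fold, limma adjusted p = 3.38e-05) after Cugbp1 siRNA, the 15th largest change of 12646 genes, and 0.84 (SE 0.05, 1.80-fold, adjusted p = 9.63e-06) after Mbnl1 siRNA, the 43rd largest. The difference between the siRNAs was -0.01, with a 95% interval from -0.13 to 0.11. All 48 probe sets of the gene were higher after Cugbp1 siRNA and 47 of 48 after Mbnl1 siRNA, with the 13 too dim for the test counted in. Of the 35 probe sets kept for the test, 11 had a control mean below the brightness cut (the 75th percentile of the means of all probe sets over the 9 arrays) and reached it through the siRNA arrays, and with no brightness filter the call remained. Over the 20 other settings the change stayed called and lay between 0.72 and 0.89 after Cugbp1 siRNA and between 0.72 and 0.88 after Mbnl1 siRNA.

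Xrn2, the nuclear relative of Xrn1 that also works in the termination of transcription, rose after Cugbp1 siRNA by 0.19 (SE 0.05, limma adjusted p = 0.0112), a call held in 15 of the 20 other settings. Its value of 0.12 after Mbnl1 siRNA did not pass (adjusted p = 0.059). Its 3 control arrays, at 9.35, 9.33 and 9.32, lay below every array of the siRNAs, which read 9.44 to 9.60.

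Among the 5 genes of proteins that bind 3′ ends, Zfp36l1, which binds AU-rich elements, was higher after each siRNA. It read 7.52, 7.48 and 7.43 on the control arrays, 8.07, 7.82 and 7.90 after Cugbp1 siRNA and 8.02, 8.03 and 7.97 after Mbnl1 siRNA. No siRNA array came as low as a control array. The rise was 0.46 (SE 0.06, limma adjusted p = 8.31e-04) and 0.53 (SE 0.06, adjusted p = 2.24e-04), and 12 of its 13 probe sets, dim ones included, were higher in each comparison. Of its 9 kept probe sets, 3 had a control mean below the brightness cut and reached it through the siRNA arrays. Of the other 6 kept, 5 were higher in each comparison. The calls were held in all 20 other settings, at 0.34 to 0.51 and at 0.43 to 0.57.

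The other listed genes of its family were not called. Zfp36 itself, the gene of tristetraprolin, had only 3 kept probe sets and values of 0.23 (adjusted p = 0.0914) and 0.06 (adjusted p = 0.674). Zfp36l2 was at -0.02 (95% interval -0.12 to 0.08) after Cugbp1 siRNA and at -0.01 (-0.11 to 0.09) after Mbnl1 siRNA. Pum2, which binds Pumilio elements, rose by 0.17 after Mbnl1 siRNA (limma adjusted p = 0.0304, called in 11 of the 20 other settings) and was at 0.13 after Cugbp1 siRNA without a call.

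Ago2, the Argonaute protein that microRNAs guide to 3′ ends, moved the other way. It read 10.91, 10.90 and 10.84 on the control arrays, 10.69, 10.81 and 10.85 after Cugbp1 siRNA and 10.67, 10.67 and 10.72 after Mbnl1 siRNA. The Mbnl1 siRNA arrays lay below all control arrays, while the Cugbp1 siRNA arrays overlapped them. Ago2 fell by 0.19 after Mbnl1 siRNA (SE 0.05, limma adjusted p = 0.0118), with 24 of 25 probe sets lower. The call ended without control replicate 1 (-0.17), control replicate 2 (-0.18) or Mbnl1 siRNA replicate 1 (-0.17), and held in the other 17 settings. After Cugbp1 siRNA the value was -0.10 (adjusted p = 0.14), which became a call under 3 of the scalings on bright signals, at -0.18, -0.20 and -0.13.

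**Figure D3:**
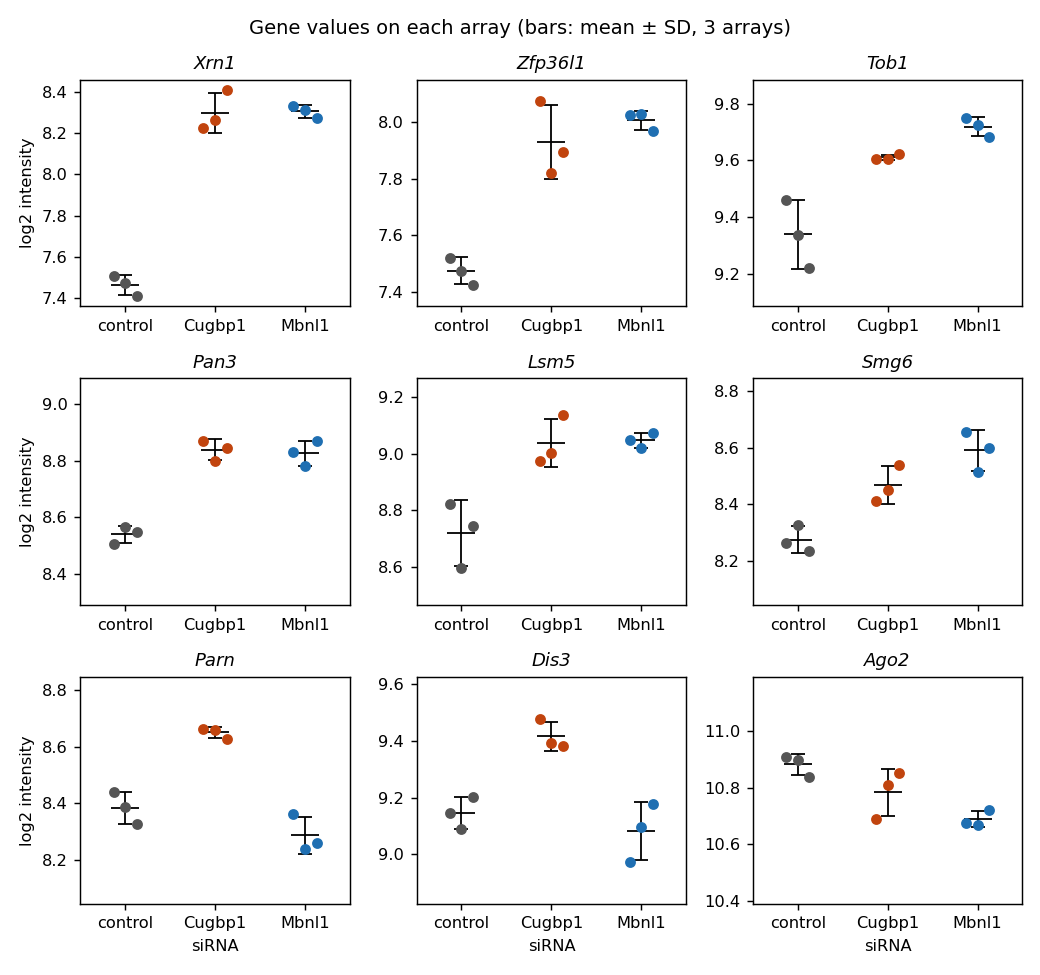
Log2 value of 9 decay genes on every array (points) in the control, Cugbp1 siRNA and Mbnl1 siRNA groups, with the mean and SD of the 3 arrays of a group; the vertical axes differ in position. Xrn1, Zfp36l1, Tob1, Pan3, Lsm5 and Smg6 are above control on all arrays of each siRNA, Parn and Dis3 are above control on all Cugbp1 siRNA arrays and overlap it after Mbnl1 siRNA, and Ago2 is below control on the 3 Mbnl1 siRNA arrays.

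Of the 15 tested genes of deadenylation, 7 rose after Cugbp1 siRNA (46.7%, against 26% of all genes) and 6 after Mbnl1 siRNA (40%, against 26.9%), and 0 fell in either. The median change was 0.13 and 0.09. With the kept probe sets centred, the counts were 2 higher and 1 lower (10.8% and 25.4% of all genes), then 3 higher and 2 lower (13.6% and 31%), with a median of 0.03 and -0.01.

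Pan3, the partner that brings the PAN2 nuclease to the tail, read 8.51, 8.57 and 8.55 on the control arrays. It read 8.87, 8.80 and 8.85 after Cugbp1 siRNA, and 8.83, 8.78 and 8.87 after Mbnl1 siRNA. The groups of the siRNAs overlapped each other and lay clear of control. The rise was 0.30 (SE 0.04, limma adjusted p = 9.56e-04) and 0.29 (SE 0.04, adjusted p = 8.08e-04), with 27 and 24 of all 29 probe sets higher, and was called in all 20 other settings. Of the 23 kept probe sets, 3 had a control mean below the brightness cut and reached it through the siRNA arrays. Of the other 20 kept, 20 and 19 were higher. Pan2, the nuclease of the pair, was not called, at -0.01 (95% interval -0.11 to 0.10) and 0.09 (-0.02 to 0.19).

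Tob1, an adaptor between the CCR4-NOT complex and its targets, read 9.46, 9.34 and 9.22 on the control arrays, 9.61, 9.61 and 9.62 after Cugbp1 siRNA and 9.75, 9.73 and 9.68 after Mbnl1 siRNA. Control arrays were spread most, and all lay below the others. The rise was 0.27 (SE 0.06, limma adjusted p = 0.00579) and 0.38 (SE 0.06, adjusted p = 8.61e-04), with all 9 probe sets higher in each. The call after Cugbp1 siRNA ended with the kept probe sets centred (0.16), and the call after Mbnl1 siRNA held in all 20 other settings. Its relative Tob2 was not called, at 0.05 and -0.07.

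The CCR4-NOT complex was tested through 10 of its 11 listed genes. Cnot2, a scaffold subunit, read 10.22, 10.07 and 10.20 on the control arrays, 10.34, 10.39 and 10.40 after Cugbp1 siRNA and 10.35, 10.41 and 10.44 after Mbnl1 siRNA. It rose by 0.21 (SE 0.05, limma adjusted p = 0.00921) and 0.24 (SE 0.05, adjusted p = 0.00475), with 27 and 26 of all 27 probe sets higher. The first call ended with gene values centred (0.13) or kept probe sets centred (0.11), and the second held in all 20 other settings.

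Cnot6, a catalytic subunit, read 10.63, 10.52 and 10.62 on the control arrays, 10.69, 10.84 and 10.88 after Cugbp1 siRNA and 10.68, 10.64 and 10.73 after Mbnl1 siRNA. All siRNA arrays were above control, and only the rise after Cugbp1 siRNA passed the test, at 0.21 (SE 0.06, limma adjusted p = 0.0158) against 0.09 (adjusted p = 0.232). The call was held in 16 of the 20 other settings. It ended with gene values centred (0.13), with kept probe sets centred (0.11), and without control replicate 2 (0.18) or Cugbp1 siRNA replicate 3 (0.18). The difference between the siRNAs was 0.13 and did not pass (adjusted p = 0.221).

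Cnot11, a further scaffold subunit, read 9.16, 9.25 and 9.19 on the control arrays, 9.38, 9.37 and 9.40 after Cugbp1 siRNA and 9.45, 9.33 and 9.42 after Mbnl1 siRNA. All 6 siRNA arrays lay above control. It rose by 0.19 (SE 0.05, limma adjusted p = 0.0102) and 0.20 (SE 0.05, adjusted p = 0.00624), and the calls held in 17 and 18 of the 20 other settings. Cnot4, a ubiquitin ligase that works with the complex, read 10.22, 10.17 and 10.29 on the control arrays, 10.33, 10.32 and 10.35 after Cugbp1 siRNA and 10.38, 10.45 and 10.42 after Mbnl1 siRNA. Here too the arrays did not overlap control, and the change passed the test after Mbnl1 siRNA (0.19, SE 0.04, limma adjusted p = 0.00809) and missed it after Cugbp1 siRNA (0.11, adjusted p = 0.0825), where 4 of the 20 other settings called it. The call after Mbnl1 siRNA ended with gene values centred (0.11) or kept probe sets centred (0.08). The difference between the siRNAs was -0.08 and did not pass (adjusted p = 0.307). Cnot10 rose after Cugbp1 siRNA (0.17) and the catalytic subunit gene Cnot7 after Mbnl1 siRNA (0.18), calls held in 15 and 11 of the 20 other settings. The scaffold gene Cnot1, read by 64 probe sets, was at 0.06 in each comparison (95% intervals -0.02 to 0.15 and -0.03 to 0.14), and Cnot6l, Cnot8 and Cnot9 were not called. Cnot3 had 1 bright probe set and was not tested. That probe set read 7.61, 7.51 and 7.27 on the control arrays, 8.12, 8.04 and 8.23 after Cugbp1 siRNA and 7.93, 7.94 and 8.03 after Mbnl1 siRNA, all siRNA arrays above control.

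Parn, the poly(A)-specific ribonuclease, was 1 of the 2 decay genes that differed between the siRNAs. It read 8.44, 8.39 and 8.33 on the control arrays, 8.66, 8.66 and 8.63 after Cugbp1 siRNA and 8.36, 8.24 and 8.26 after Mbnl1 siRNA. The Cugbp1 siRNA arrays stood above all others, and the Mbnl1 siRNA arrays overlapped control. The rise against control was 0.27 (SE 0.05, limma adjusted p = 0.00262), called in all 20 other settings at 0.17 to 0.33. After Mbnl1 siRNA the value was -0.10 (adjusted p = 0.133), which was called lower under the stricter brightness filter (-0.17) and the scalings on bright signals (-0.17 to -0.20). The difference between the siRNAs was 0.36 (SE 0.05, 95% interval 0.26 to 0.47, adjusted p = 0.00151), and 25 of all 27 probe sets were higher after Cugbp1 siRNA.

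Dis3, the exonuclease subunit of the exosome, was the other. It read 9.15, 9.09 and 9.20 on the control arrays, 9.48, 9.39 and 9.38 after Cugbp1 siRNA and 8.97, 9.10 and 9.18 after Mbnl1 siRNA. Again the Cugbp1 siRNA arrays stood alone. The rise against control was 0.27 (SE 0.06, limma adjusted p = 0.00588), a call that ended with the kept probe sets centred (0.16). The value after Mbnl1 siRNA was -0.06 (adjusted p = 0.401). The difference between the siRNAs was 0.33 (SE 0.06, 95% interval 0.21 to 0.46, adjusted p = 0.00631), with 29 of all 30 probe sets higher after Cugbp1 siRNA.

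These 2 genes were the decay genes called between the siRNAs, 3.77% of the 53, against 9.34% of all genes (4.27% higher and 5.07% lower). Both calls held in all 20 other settings, at 0.31 to 0.44 for Parn and 0.30 to 0.38 for Dis3. Arrays did not overlap for 13 of the 53 genes, which is 24.5% against 29.5% of all genes. At the low end stood Ddx6, the helicase that links deadenylation to decapping, with a difference of -0.25 (95% interval -0.45 to -0.06, adjusted p = 0.104). Its probe sets were lower after Cugbp1 than after Mbnl1 siRNA in 23 of 27 cases, and it had values of -0.04 (adjusted p = 0.753) and 0.22 (adjusted p = 0.0688) against control. Of the lower differences, 0 were called and 2 passed an unadjusted p of 0.05, those of Ddx6 and Smg6. The share of all genes that passed this unadjusted cut is not given, so the count does not set the decay genes apart. For the 51 genes other than Parn and Dis3, a miss of the threshold does not show that the siRNAs acted alike.

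**Figure D4:**
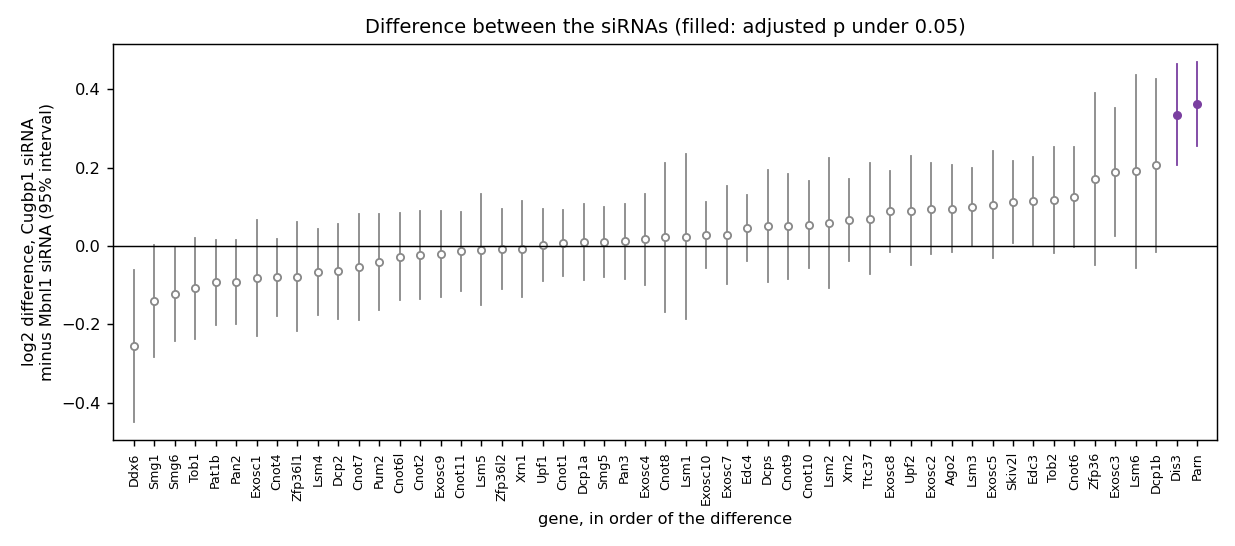
Difference in log2 value between the Cugbp1 siRNA and Mbnl1 siRNA arrays for each of the 53 tested decay genes (vertical axis, with 95% intervals), in order of size along the horizontal axis. The 2 filled points, Dis3 at 0.33 and Parn at 0.36, passed an adjusted p of 0.05, and Ddx6 at -0.25 is the lowest value.

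Of the 12 tested exosome genes, 6 rose after Cugbp1 siRNA (50%, against 26% of all genes) and 2 after Mbnl1 siRNA (16.7%, below the 26.9% of all genes), with median changes of 0.14 and 0.05 and 0 called lower. With the kept probe sets centred, the 6 calls after Cugbp1 siRNA ended (median 0.04), and after Mbnl1 siRNA the 2 calls ended and Exosc2 and Dis3 were called lower (median -0.05). Under that scaling more of all genes were called lower than higher in each comparison, as given above.

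Exosc7, a subunit of the ring, read 8.03, 7.91 and 7.97 on the control arrays, 8.11, 8.18 and 8.24 after Cugbp1 siRNA and 8.07, 8.23 and 8.15 after Mbnl1 siRNA. Every siRNA array was above control. The rise was 0.21 (SE 0.06, limma adjusted p = 0.0162) and 0.18 (SE 0.06, adjusted p = 0.027). The calls were held in 14 and 10 of 19 other settings. Each ended under the scalings on bright signals, at 0.06 to 0.13 and 0.03 to 0.10, and the second also with no brightness filter (0.13) and with repeated quantile normalisation (0.15). The first call ended without Cugbp1 siRNA replicate 2 (0.21) or 3 (0.19), and the second without control replicate 2 (0.15), Cugbp1 siRNA replicate 2 (0.15), Mbnl1 siRNA replicate 2 (0.09) or Mbnl1 siRNA replicate 3 (0.20).

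Exosc3, an RNA-binding cap subunit read by 3 kept probe sets, read 8.93, 9.21 and 9.17 on the control arrays, 9.37, 9.37 and 9.24 after Cugbp1 siRNA and 9.06, 9.19 and 9.17 after Mbnl1 siRNA. The Cugbp1 siRNA arrays lay above all control arrays, 1 of which was well below the others. The rise of 0.23 (SE 0.07, limma adjusted p = 0.0351) was called in 10 of 19 other settings. The call ended with repeated quantile normalisation (0.18), the scalings on bright signals (0.11 to 0.14) and only the 2 groups in the fit (0.23), and without control replicate 1 (0.13), control replicate 3 (0.24), Cugbp1 siRNA replicate 1 (0.19) or Cugbp1 siRNA replicate 2 (0.21). After Mbnl1 siRNA it was at 0.03 (adjusted p = 0.728), with a sign that turned under several scalings.

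Exosc9, another ring subunit, rose by 0.16 after Cugbp1 siRNA and 0.18 after Mbnl1 siRNA, calls held in 12 and 16 of the 20 other settings. Exosc5 and Ttc37, the latter a part of the SKI complex that feeds the cytoplasmic exosome, rose by 0.18 each after Cugbp1 siRNA with adjusted p-values of 0.0448 and 0.0487 (limma), calls held in 7 and 9 of the 20 other settings. Higher after Cugbp1 siRNA were 6 of all 12 probe sets of Exosc5 (5 of 6 kept and 1 of 6 too dim) and 44 of all 55 of Ttc37. Neither gene was called after Mbnl1 siRNA. The SKI helicase gene Skiv2l was not called, at 0.12 and 0.00, nor was Exosc10, the nuclear exonuclease subunit, at 0.03 (95% interval -0.05 to 0.12) and 0.01 (-0.08 to 0.09). Exosc1, Exosc2, Exosc4 and Exosc8 were not called, and Exosc6, with 1 of 5 probe sets bright enough, was not tested.

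Of the 14 tested decapping genes, 2 rose after Cugbp1 siRNA, and 2 rose and 1 fell after Mbnl1 siRNA, with median changes of 0.10 and 0.07. The share that rose, 14.3% in each comparison, lay below the 26% and 26.9% of all genes. With the kept probe sets centred, the counts were 2 higher and 2 lower, then 1 higher and 4 lower, with a median of 0.00 and -0.03. Under that scaling more of all genes were called lower than higher in each comparison, as given above. The genes that rose after Cugbp1 siRNA encode 2 small subunits of the LSM ring, which binds the shortened tail.

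Lsm5 read 8.82, 8.59 and 8.74 on the control arrays, 8.98, 9.003 and 9.14 after Cugbp1 siRNA and 9.05, 9.02 and 9.07 after Mbnl1 siRNA. All siRNA arrays were above control. It rose by 0.32 (SE 0.06, limma adjusted p = 0.0045) and 0.33 (SE 0.06, adjusted p = 0.00307), with 9 of all 11 probe sets higher in each, and the calls held in all 20 other settings.

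Lsm6 read 7.96, 7.90 and 7.49 on the control arrays, 8.14, 8.10 and 8.35 after Cugbp1 siRNA and 7.97, 8.04 and 8.0025 after Mbnl1 siRNA. The third control array lay far below the other two, and all Cugbp1 siRNA arrays lay above the control arrays. It rose by 0.41 after Cugbp1 siRNA (SE 0.11, limma adjusted p = 0.0167), a call that ended without Cugbp1 siRNA replicate 3 (0.30). After Mbnl1 siRNA the value was 0.22 (adjusted p = 0.138), called without control replicate 1 (0.30). The other tested LSM genes, Lsm1 to Lsm4, were not called and ranged from -0.11 to 0.19 after Cugbp1 siRNA and from -0.04 to 0.17 after Mbnl1 siRNA. Lsm7 had a single probe set, which was too dim to be kept.

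Pat1b, which joins the LSM ring to the decapping enzyme, rose by 0.17 after Mbnl1 siRNA (SE 0.05, limma adjusted p = 0.0212, called in 14 of the 20 other settings) and was at 0.07 after Cugbp1 siRNA. Dcp1b, an activator of decapping, was the decapping gene that fell. It read 7.66, 8.04 and 7.69 on the control arrays, 7.70, 7.88 and 7.60 after Cugbp1 siRNA and 7.49, 7.53 and 7.54 after Mbnl1 siRNA. Only the Mbnl1 siRNA arrays lay clear of control, and the control arrays were spread widely. The fall of 0.28 (log2 change -0.28, SE 0.10, limma adjusted p = 0.0476) ended as a call without any 1 of the Mbnl1 siRNA replicates (-0.30, -0.31 and -0.29 without replicates 1, 2 and 3), with no brightness filter (-0.09), with the arrays centred (-0.25) and with only the 2 groups in the fit (-0.28). The decapping enzyme gene Dcp2 was at -0.09 (95% interval -0.22 to 0.03) and -0.03 (-0.15 to 0.09), and Dcp1a, Dcps, Edc3 and Edc4 were not called in either comparison.

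Of the 5 tested genes of nonsense-mediated decay, 2 rose after Cugbp1 siRNA and 3 after Mbnl1 siRNA, with medians of 0.08 and 0.17, where 26% and 26.9% of all genes rose. With the kept probe sets centred, 1 was higher and 1 lower after Cugbp1 siRNA (median -0.03), and 1 higher and 2 lower after Mbnl1 siRNA (median 0.07). Under that scaling more of all genes were called lower than higher in each comparison, as given above. Upf3a and Upf3b had no probe set with a single symbol and were not tested.

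Smg6, the endonuclease that cuts messages near a premature stop, read 8.26, 8.33 and 8.23 on the control arrays, 8.41, 8.45 and 8.54 after Cugbp1 siRNA and 8.66, 8.51 and 8.60 after Mbnl1 siRNA. Every siRNA array was above control. Of its 24 kept probe sets, 3 had a control mean below the brightness cut and reached it through the siRNA arrays. Of the other 21 kept, 20 were higher after Cugbp1 siRNA and 19 after Mbnl1 siRNA. The rise of 0.31 after Mbnl1 siRNA (SE 0.05, limma adjusted p = 0.00142) held in all 20 other settings, with 33 of all 39 probe sets higher. The rise of 0.19 after Cugbp1 siRNA (SE 0.05, adjusted p = 0.0183) was called in 13 of the 20. It ended with the stricter brightness filter (0.15) and the scalings on bright signals (0.09 to 0.11), and without control replicate 1 (0.19), control replicate 3 (0.17) or Cugbp1 siRNA replicate 2 (0.19).

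Upf2, the bridge between UPF1 and the exon junction, read 8.20, 8.25 and 8.13 on the control arrays, 8.32, 8.47 and 8.57 after Cugbp1 siRNA and 8.36, 8.38 and 8.36 after Mbnl1 siRNA. The siRNA arrays did not overlap control. It rose by 0.26 after Cugbp1 siRNA (SE 0.06, limma adjusted p = 0.00915), called in all 20 other settings. The rise of 0.17 after Mbnl1 siRNA (adjusted p = 0.0469) was called in 9 of the 20. That call ended with the stricter filter (0.11), repeated quantile normalisation (0.15), the scalings on bright signals (0.07 to 0.10) and the replicate block (0.17). It also ended without control replicate 2 (0.21) or 3 (0.17), or without Mbnl1 siRNA replicate 1 (0.20), 2 (0.16) or 3 (0.19).

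Smg1, the kinase that phosphorylates UPF1, read 9.09, 9.07 and 9.05 on the control arrays, 9.01, 9.19 and 9.25 after Cugbp1 siRNA and 9.23, 9.38 and 9.27 after Mbnl1 siRNA. The Mbnl1 siRNA arrays lay above control and the Cugbp1 siRNA arrays straddled it. It rose by 0.22 after Mbnl1 siRNA (SE 0.06, limma adjusted p = 0.0206), a call held in 15 of the 20 other settings. It ended under the scalings on bright signals (0.10 to 0.15), and without control replicate 3 (0.21) or Mbnl1 siRNA replicate 2 (0.19). After Cugbp1 siRNA it was at 0.08 (adjusted p = 0.343), called without Cugbp1 siRNA replicate 1 (0.15). The helicase gene Upf1 was at -0.00 (95% interval -0.09 to 0.09) and -0.01 (-0.10 to 0.09), and Smg5, an adaptor for the decay enzymes, at -0.08 and -0.09, neither called.

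Probe sets of exons can move apart from their gene. Each kept probe set of a gene with at least 4 was compared with its gene's value on the same array, which covered 991 probe sets in 51 decay genes. After Cugbp1 siRNA 31 of them, in 21 genes, departed from their gene (3.13%, against 3.75% of all probe sets tested). After Mbnl1 siRNA 66 departed, in 33 genes (6.66% against 6.98%). Of the 74 probe sets that departed in either comparison, 23 did so in both, which share the control arrays. The same count over all probe sets is not given. Between the siRNAs 0 were called by limma (0.0277% of all probe sets). An unadjusted p of 0.05 was passed by 52 of the 991, about the number that such a cut passes with no difference. limma's diffSplice called 2. Shares of all probe sets are not given for the unadjusted count or for diffSplice, so these do not set the decay genes apart. The exons that the departing probe sets lie in were not used here.

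These counts rested on the filter and on single arrays. With no brightness filter 4 and 5 departures were called. Shares of all probe sets are not given for the settings in this paragraph, so the counts describe the listed genes only. After Cugbp1 siRNA the number fell to 13 when control replicate 3 was left out, to 16, 13 and 10 when replicates 1, 2 and 3 of Cugbp1 siRNA were, and to 17 and 18 when replicates 1 and 3 of Mbnl1 siRNA were. After Mbnl1 siRNA it was 34 and 28 without control replicates 2 and 3, and 13, 26 and 9 without Mbnl1 siRNA replicates 1, 2 and 3. Probe sets that departed downward had a median control reading of 9.99 after Cugbp1 siRNA and 10.0 after Mbnl1 siRNA, and those that departed upward 7.75 and 7.65, on the log2 scale. Of the called departures, 2 after Cugbp1 siRNA and 4 after Mbnl1 siRNA, all upward, were of probe sets whose control mean lay below the brightness cut and which passed it through the siRNA arrays. The part of brightness in these departures was not tested.

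The clearest departures were of single probe sets. Pan3 probe set 4652111 read 6.85, 6.43 and 6.48 on the control arrays, 7.81, 7.97 and 7.63 after Cugbp1 siRNA and 7.71, 7.95 and 7.82 after Mbnl1 siRNA. Its control mean, 6.59, lay below the brightness cut, so it was kept through the siRNA arrays, where it was high. It departed from its gene by 0.92 (SE 0.16, limma adjusted p = 0.0139) and 0.95 (SE 0.16, adjusted p = 0.00783). In Smg1, probe set 5381194 read 9.13, 9.15 and 9.53 on the control arrays. It read 8.69, 8.67 and 8.64 after Cugbp1 siRNA, a departure of -0.69 (SE 0.14, limma adjusted p = 0.0224). After Mbnl1 siRNA it read 8.59, 8.46 and 8.46, a departure of -0.99 (SE 0.14, adjusted p = 0.0033). Probe set 5094835 of the same gene departed by 0.52 (SE 0.09, adjusted p = 0.015) after Cugbp1 siRNA and by 0.51 (SE 0.09, adjusted p = 0.0108) after Mbnl1 siRNA. In Cnot8, probe set 5467938 read 9.86, 10.08 and 10.32 on the control arrays and 9.28, 9.38 and 9.44 after Cugbp1 siRNA, a departure of -0.78 (SE 0.11, adjusted p = 0.00514) in a gene whose own value was 0.06. After Mbnl1 siRNA it read 9.63, 9.58 and 9.65, also below all control arrays.

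Tob2 probe set 4949403 departed by -0.55 after Cugbp1 siRNA and -0.41 after Mbnl1 siRNA, and Cnot10 probe set 4528204 by -0.46 and -0.42. Called after Cugbp1 siRNA were also single probe sets of Cnot6l (0.85), Smg1 (0.52, probe set 5094835 again), Cnot6 (-0.35) and Dis3 (-0.31). Called after Mbnl1 siRNA were also single probe sets of Ddx6 (0.55), Upf2 (0.50) and Exosc10 (0.43), the last in a gene whose value was 0.01. The adjusted p-values (limma) of those named so far in this paragraph lay between 0.00657 and 0.0191. The same probe sets of Ddx6, Upf2 and Exosc10 were called after Cugbp1 siRNA too, at 0.41, 0.40 and 0.35 (limma adjusted p = 0.0411, 0.0381 and 0.0415).

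**Figure D5:**
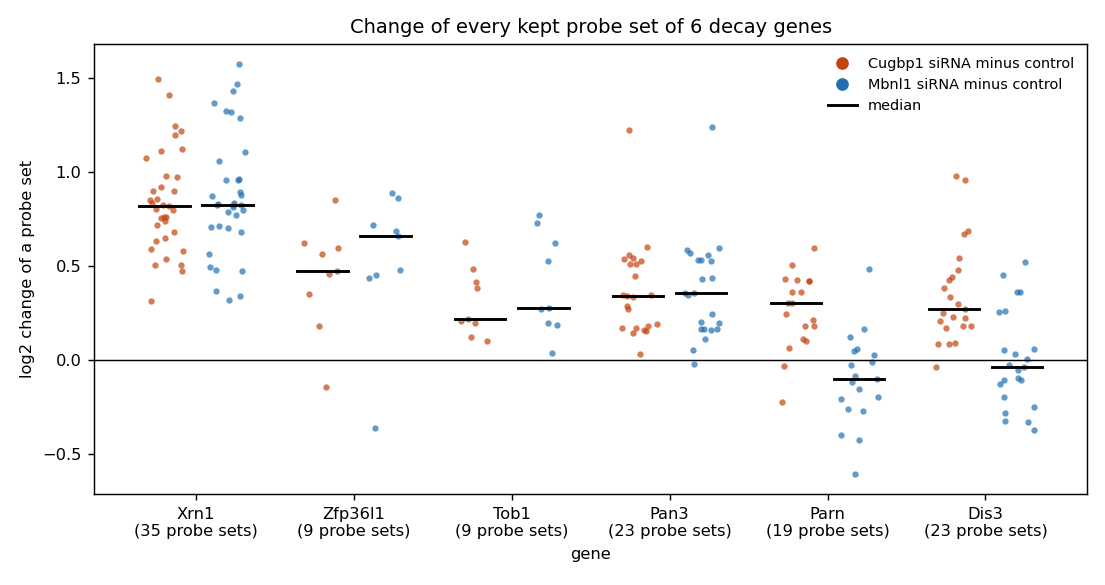
Log2 change of every kept probe set (points) of 6 decay genes against the control arrays, after Cugbp1 siRNA (orange) and Mbnl1 siRNA (blue), with the median as a bar. All 35 points of Xrn1 and all 9 of Tob1 lie above 0 for each siRNA, those of Parn and Dis3 lie mostly above 0 for Cugbp1 siRNA and on both sides of 0 for Mbnl1 siRNA, and 1 Pan3 probe set, kept through the siRNA arrays because its control mean of 6.59 is below the brightness cut, stands at 1.22 and 1.24.

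A further list of 67 genes around the same pathways, of which 61 were tested, was read the same way. After Cugbp1 siRNA 25 rose and 2 fell (41% and 3.28%, against 26% and 12.7% of all genes, median 0.12), and after Mbnl1 siRNA 24 rose and 3 fell (39.3% and 4.92%, against 26.9% and 14.6%, median 0.13). With the kept probe sets centred these became 8 and 6 (median 0.03), then 17 and 8 (median 0.02). Of all genes, more were then called lower than higher in each comparison, with the shares given above for that scaling. Between the siRNAs 3 were higher and 4 lower after Cugbp1 siRNA, 4.92% and 6.56% of the 61 against 4.27% and 5.07% of all genes.

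Tia1, which binds U-rich sequences and gathers in stress granules, read 8.45, 8.29 and 8.38 on the control arrays, 8.91, 8.995 and 8.999 after Cugbp1 siRNA and 8.77, 8.76 and 8.79 after Mbnl1 siRNA. The groups did not overlap, and the rise was 0.59 (SE 0.05, limma adjusted p = 9.64e-05) and 0.40 (SE 0.05, adjusted p = 3.19e-04), with a difference of 0.20 between the siRNAs (adjusted p = 0.0341). Tut4, a uridylyl transferase that marks messages with short tails, rose by 0.38 and 0.41. Zc3h12c, of the Regnase family of RNases, rose by 0.38 and 0.53, and its first value was 0.22 and not called with no brightness filter.

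Of the 14 tested genes of this list that belong with the exosome, 8 rose and 1 fell after Cugbp1 siRNA (57.1% and 7.14%, against 26% and 12.7% of all genes), and 5 rose and 1 fell after Mbnl1 siRNA (35.7% and 7.14%, against 26.9% and 14.6%). C1d, a nuclear cofactor, rose by 0.32 and 0.37, and the first call ended with kept probe sets centred (0.20), with quantile normalisation over them (0.20), and without control replicate 2 (0.28) or Cugbp1 siRNA replicate 2 (0.28). Zfc3h1, which works in nuclear RNA surveillance, rose by 0.34 and 0.32. The fall in each was that of Pelo, which rescues stalled ribosomes. It fell by 0.31 on the log2 scale after Cugbp1 siRNA (limma adjusted p = 0.00105) and by 0.30 after Mbnl1 siRNA, and its first value was -0.04 and not called with no brightness filter.

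Btg2, a relative of Tob1 that stimulates deadenylation, and Pnrc1, a decapping coactivator, were called after Mbnl1 siRNA. Btg2 read 8.79, 8.65 and 8.75 on the control arrays, 8.72, 8.84 and 8.96 after Cugbp1 siRNA and 9.33, 9.06 and 9.14 after Mbnl1 siRNA. It rose by 0.45 after Mbnl1 siRNA (SE 0.08, limma adjusted p = 0.0017), was at 0.11 after Cugbp1 siRNA, and differed between the siRNAs by -0.34 (adjusted p = 0.024). Pnrc1 rose by 0.37 (SE 0.09, limma adjusted p = 0.00716), was at 0.06 after Cugbp1 siRNA and differed by -0.31 (adjusted p = 0.0474).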

How the data were processed

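Total RNA of 9 C2C12 samples was hybridised to exon arrays. Per the submitters' processing notes, the authors used RMA in Affymetrix Expression Console with build mm9; no source used here gives their versions. The deposited values are linear intensity values per probe set, and log2 was taken here. A probe set was kept when its mean log2 value over the 9 arrays reached the 75th percentile (7.00, an intensity of 128), and a gene was tested with at least 3 kept probe sets of 1 symbol, summarised by Tukey median polish. Of the 999 kept probe sets of the decay genes, 30 had a control mean below that cut and reached it through the siRNA arrays. Whether changes are compressed where probe sets are dim was not tested, and precision is limited by how few arrays there are. Platform symbols were updated through RefSeq (GRCm38.p6): Cnot9, Cnot11, Pan2, Ago2 and part of Tob2's probe sets had older names, and Pat1b is listed as Patl1. limma 3.58.1 (R 4.3.3) fitted group means over all 9 arrays, with Benjamini-Hochberg adjustment over all 12646 genes; probe sets less their gene value were fitted with a mean-variance trend in genes with at least 4 kept probe sets.

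Values on each array are given for the 12 decay genes with the largest called changes against control, every gene called between the siRNAs and the largest change in each role, and the 6 largest called changes of the further list and up to 8 departing probe sets per comparison are named; Ddx6, Xrn2, Cnot3 and uncalled genes were named after their values were seen. The members and lists were chosen with earlier results of these data known. The gene test was tested on simulated data with the spread of these arrays. It called 25.4% of 1.2-fold changes, 82.1% of 1.5-fold and 98.5% of 2-fold changes. Of its 147 calls, 10 were of genes given no change. With 4893 genes called after Cugbp1 siRNA in the data, against 147 in the simulation, the share of changes missed may differ. Alternatives covered the brightness filter, 5 scalings (2 chosen after seeing the data), the gene summary, the fit, the replicate number as a block and each array left out.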

Additional observations from a re-analysis of the deposited data

Results flagged for a closer look

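Parn and Dis3 were the decay genes whose response differed between the siRNAs by a test of the difference itself, with the 3 control arrays shared. Parn was higher by 0.36 on the log2 scale (limma adjusted p = 0.00151) and Dis3 by 0.33 (adjusted p = 0.00631) after Cugbp1 siRNA than after Mbnl1 siRNA, and the arrays of the siRNAs did not overlap for either gene. They are 3.77% of the 53 tested decay genes, against 9.34% of all genes, and the same test called 7 of the 61 further genes, Tia1, Btg2 and Pnrc1 among them.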

How the results depend on the processing

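Over 52 gene changes and 1029 comparisons with other settings, 926 kept their direction and their side of the threshold, 77 lost a call, 14 gained one and 12 turned sign, all of the last among changes that were not called. After Cugbp1 siRNA the number of decay genes called was 13 with gene values centred on the median gene and 12 with the kept probe sets centred, against 20. Leaving out 1 array gave 14 to 27 (lowest without Cugbp1 siRNA replicate 3, highest without Cugbp1 siRNA replicate 1), 12 to 23 after Mbnl1 siRNA and 2 to 4 between the siRNAs, where the stricter filter gave 4. Among these other settings, shares of all genes are given above for the scalings only. The other counts in this section therefore do not set the decay genes apart from all genes. Departing probe sets numbered 4 and 5 with no filter, 66 and 97 with diffSplice (2 between the siRNAs), and 10 to 33, 9 to 68 and 0 to 0 with 1 array left out. Calls held in every setting for 6 of 20 genes after Cugbp1 siRNA, 7 of 18 after Mbnl1 siRNA and 2 of 2 between the siRNAs.

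Signs turned as follows. After Mbnl1 siRNA, Exosc3 went to -0.0096 with repeated quantile normalisation, -0.040 with gene values centred, -0.090 with kept probe sets centred and -0.073 with quantile normalisation over the kept probe sets, and ranged from -0.048 (without control replicate 1) to 0.077 (without control replicate 2) with 1 array left out. Lsm6 went to -0.034 with the stricter filter, Dis3 to 0.00036 with the mean of probe sets and Cnot6 to -0.0091 with kept probe sets centred. After Cugbp1 siRNA, Smg1 went to -0.0015, -0.033 and -0.0021 under those 3 scalings on bright signals, and Dcp1b ranged from -0.17 (without Cugbp1 siRNA replicate 2) to 0.011 (without control replicate 2). The causes were not tested.

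With the replicate number as a block, 19, 16 and 2 decay genes were called after Cugbp1 siRNA, after Mbnl1 siRNA and between the siRNAs, and 20 and 53 probe sets departed. Same-numbered arrays correlated between -0.10 and 0.12 over 9 pairs, 1 of them over 0.1, and differently numbered arrays between -0.13 and 0.09. With 3 arrays in a group, these values cannot settle whether the numbers pair the samples. Dim probe sets limit the rest: Cnot3, Lsm7 and Exosc6 could not be tested.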
